A study of Mus musculus with 9 samples.

Results

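The genes described here are 10 genes of inflammatory cytokine signalling and of the inflammasome, chosen by symbol: Il1a, Il1b, Il1rn, Il1r2, Il18, Tnf, Il6, Nlrp3, Casp1 and Pycard. All 10 were found among the 55322 genes of the expression table, which gives FPKM (reads scaled to exon length and to all reads on genes of a library) in 9 libraries of 3 groups. CD11b+ B cells and CD11b- B cells, 3 libraries each, were sorted from the bone marrow (BM) of wild type C57BL/6 mice 48 h after an intraperitoneal dose of 5 mg/kg LPS, a bacterial cell wall component. Peritoneal macrophages (PMs, CD11b+F4/80+), also 3 libraries, came from the peritoneal cavity of wild type mice that were naive and untreated. CD11b is an integrin chain that is usual on myeloid cells and unusual on B cells. BM cells that carried TER119, NK1.1, Gr-1, CD8, CD4 or CD3 had been removed with magnetic beads before the B cells were sorted. No library came from B cells of untreated mice or from PMs after LPS, so the response of a gene to LPS was not measured. PMs and B cells differed in cell type, tissue and treatment at once, and these cannot be told apart. The labels do not say whether the 3 libraries of a group came from separate mice. The study gave the spread of these values as an SD, its convention for biological replicates, without saying which mice or pools the libraries were, so p-values measure the spread between these libraries.

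IL-1α and IL-1β are ligands of the same receptor. IL-1β is made mainly by myeloid cells that have met a microbial signal, while IL-1α is also present in many other cells, such as epithelial cells. IL-1β and IL-18 are made as inactive precursors, which caspase-1 cuts after a sensor such as NLRP3 and the adaptor ASC, encoded by Pycard, have assembled into an inflammasome. The receptor antagonist encoded by Il1rn and the decoy receptor encoded by Il1r2 block IL-1, while TNF and IL-6 are cytokines induced through the same innate receptors. IL-1 and IL-6 are also known to drive the marrow towards myeloid output during infection.

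The libraries held 18014658 to 35251215 reads on genes. The 12 B cell markers summed to 12900 to 16100 FPKM in the 6 B cell libraries and to 144 to 280 FPKM in PMs. Itgam, the gene of CD11b, was at 1.31 to 1.92 FPKM in CD11b+ B cells, at 0.251 to 0.869 FPKM in CD11b- B cells and at 251 to 358 FPKM in PMs. Neutrophil markers were not at 0 in CD11b+ B cells. The 16 neutrophil markers summed to 675, 1610 and 220 FPKM in CD11b+ replicates 1, 2 and 3, against 2.07 to 3.31 FPKM in CD11b- B cells. None of the 16 was without a read in CD11b+ B cells. In PMs they summed to 219 to 284 FPKM, mostly from Prtn3 at a mean of 171 FPKM and Csf3r at 62.9 FPKM. The 14 monocyte and macrophage markers summed to 315, 291 and 132 FPKM in the CD11b+ replicates, to 52.8 to 58.3 FPKM in CD11b- B cells and to 20200 to 54800 FPKM in PMs. Plasma cell markers summed to 262, 229 and 613 FPKM in the CD11b+ replicates against 77.8 to 136 FPKM in CD11b- B cells. Basophil and mast cell markers summed to 2.48, 1.66 and 2.9 against at most 0.149 FPKM, and erythroid markers to 39.1, 39.1 and 27.6 against 1.4 to 21.2 FPKM. For T and NK cell markers the sums were 3.62, 4.24 and 2.91 against 0.0614 to 2.66 FPKM. Dendritic cell markers had 2.46, 1.61 and 2.52 against 0.675 to 1.38 FPKM. Those of platelets and megakaryocytes overlapped, at 6.07, 4.67 and 6.75 against 2.5 to 4.71 FPKM.

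The bases just before the start of Il1b, Il6, Tnf and Pycard are shown as examples of an IL-1 ligand, the 2 other cytokines and the inflammasome adaptor, whose levels the results turn on. They are the 250 bases up to the start on GRCm38.p6 in RefSeq, 5′ to 3′ on the strand of the gene, and all 10 genes were matched in that table. The regions are chr2:129371140-129371389 for Il1b, chr5:30012864-30013113 for Il6, chr17:35202008-35202257 for Tnf and chr7:127993868-127994117 for Pycard. Il6 lies on the + strand and the other 3 on the - strand. Capitals mark matches to TATAAA (the TATA box), GGGANTTTC (letters bound by nuclear factor kB) and AGGAAGT (letters bound by PU.1 and other ETS factors), on either strand, with no overlap between matches.
Il1b: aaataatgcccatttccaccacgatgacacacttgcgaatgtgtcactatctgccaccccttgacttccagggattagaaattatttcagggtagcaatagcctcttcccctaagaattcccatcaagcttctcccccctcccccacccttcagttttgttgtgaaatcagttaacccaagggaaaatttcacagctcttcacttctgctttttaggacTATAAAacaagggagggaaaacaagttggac
Il6: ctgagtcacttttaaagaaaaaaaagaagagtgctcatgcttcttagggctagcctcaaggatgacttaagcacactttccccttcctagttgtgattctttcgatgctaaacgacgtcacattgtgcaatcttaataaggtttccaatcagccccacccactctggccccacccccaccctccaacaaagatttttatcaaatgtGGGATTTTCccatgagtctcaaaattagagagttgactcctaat
Tnf: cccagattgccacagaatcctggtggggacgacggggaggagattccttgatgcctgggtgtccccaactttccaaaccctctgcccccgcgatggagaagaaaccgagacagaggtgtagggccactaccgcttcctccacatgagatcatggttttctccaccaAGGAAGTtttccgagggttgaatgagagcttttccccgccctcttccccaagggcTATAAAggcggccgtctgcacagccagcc
Pycard: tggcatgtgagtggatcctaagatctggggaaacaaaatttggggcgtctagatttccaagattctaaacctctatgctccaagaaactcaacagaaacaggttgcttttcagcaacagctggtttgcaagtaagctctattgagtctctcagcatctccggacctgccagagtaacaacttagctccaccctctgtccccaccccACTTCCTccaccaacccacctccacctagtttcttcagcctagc
The TATA box letters began 31 bases before the start of Il1b and 29 bases before that of Tnf. They also began 32 bases before the start of Il1a. In the window of Il18 they lay farther off, 175 to 170 bases before the start and on the other strand. So 4 of the 10 genes, which have 13 windows, held these letters, as did 12.4% of all 32851 promoter windows of this length. The nuclear factor kB letters were found 44 to 36 bases before the start of Il6, in no other of the 10 genes and in 0.941% of all windows. The ETS letters were found in the windows of Tnf and Pycard and in 7.69% of all windows. These matches describe letters, and no binding was measured here.

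In CD11b+ B cells the 10 genes fell into a high and a low set. FPKM divides reads by exon length, so an order between genes also depends on the lengths used. Pycard, Casp1, Il18 and Tnf had means of 25.1, 24.2, 12.6 and 10.5 FPKM, while no mean of the other 6 genes was above the 1.73 FPKM of Il1r2. The order below Il1r2 was Il1b at 0.486 FPKM, Il6 at 0.324 FPKM, Il1rn at 0.211 FPKM, Il1a at 0.0516 FPKM and Nlrp3 at 0.0248 FPKM. Within the high set the ranges over 3 libraries overlapped between Pycard and Casp1 and between Il18 and Tnf, and did not overlap between Casp1 and Il18. Within the low set the ranges of all neighbours in this order overlapped. Pycard was above 93.2% of the 34551 genes with a read in CD11b+ B cells, and Nlrp3 above 25.3% of them. CD11b- B cells had Pycard, Casp1, Il18 and Tnf in the same order at 20.4, 19.5, 18.3 and 6.98 FPKM, with Il1a, Il1b and Il6 at no read in any library. In PMs the order was Pycard at 174 FPKM, Casp1 at 36.3 FPKM and Il18 at 26.4 FPKM, followed by Nlrp3 at 1.79 FPKM, Il1a at 1.76 FPKM, Il6 at 1.54 FPKM and Tnf at 1.38 FPKM. The ranges of these last 4 genes overlapped in PMs.

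**Figure D1:**
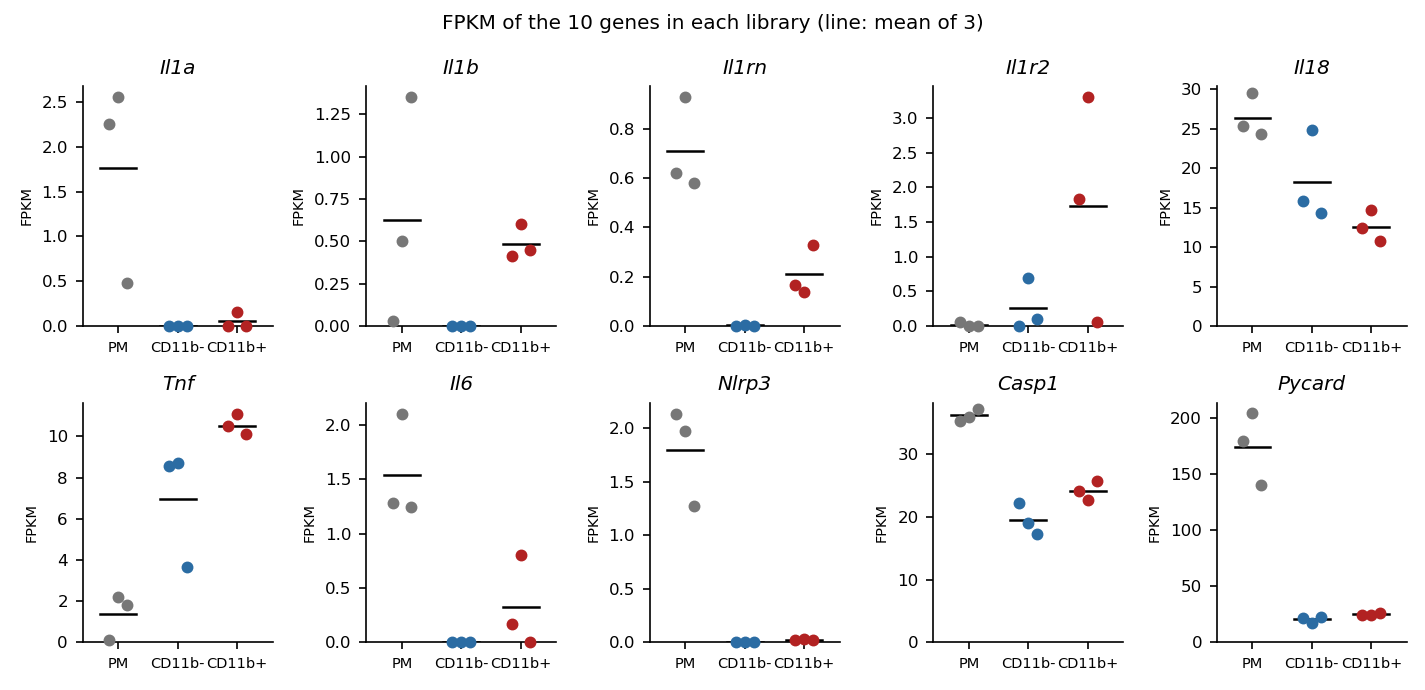
FPKM (vertical axes, linear from 0, a scale for each gene) of the 10 genes in PMs, CD11b- B cells and CD11b+ B cells, with a point for each library and a line at the mean of 3. The points of PMs stand apart above both B cell groups for Il1a, Il1rn, Il6, Nlrp3, Casp1 and Pycard, and below them for Tnf.

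Il1b was detected in every library of CD11b+ B cells and in no library of CD11b- B cells. Its FPKM was 0.411, 0.601 and 0.446 in CD11b+ B cells, from 23, 30 and 30 reads, and 0.0291, 0.503 and 1.35 in PMs, from 1, 28 and 52 reads. The CD11b- libraries held 0 reads of Il1b together, which allows up to 0.0157 FPKM at 3 reads over the group. The mean in CD11b+ B cells was thus at least 31.0-fold higher than in CD11b- B cells, and at least 20.2-fold to 33.4-fold higher with any single library left out, with counting error as the only error covered. On the scale of log2(FPKM + 1) the difference was 0.57 ± 0.13 (SE), with an adjusted p of 0.286 (limma over 21778 genes). The exact permutation test gave p = 0.1 for this difference in means, the smallest it can give for 3 against 3 libraries. In RNA of sorted populations, fewer cells that carry a transcript and less of it per cell cannot be told apart.

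Against PMs, Il1b in CD11b+ B cells differed little in the mean. The CD11b+ mean was 0.486 ± 0.101 FPKM (SD, n = 3) and the PM mean 0.628 ± 0.67 FPKM, so the CD11b+ mean was 77.4% of the PM mean. The log2 difference was -0.05, with a 95% interval from -0.78 to 0.68, which leaves room for a difference either way. It was 0.25 without PM replicate 3 and 0.26 with a pseudocount of 0.1, so its sign was not stable. CD11b- B cells stood at least 40.0-fold below PMs, or at least 17.0-fold with PM replicate 3 left out. That difference of -0.62 did not pass the threshold with all libraries (adjusted p = 0.129, limma) and did so without PM replicate 1, the library with 1 read of Il1b (adjusted p = 0.0197), and with DESeq2 (adjusted p = 0.000766). Il1b lies on chr2:129364570-129371139 (GRCm38, - strand) and shares exon bases with Il1bos on the other strand. Il1bos had at most 0.128 FPKM in any library, in CD11b+ replicate 2.

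The neighbouring gene Il1a had another pattern, with nearly all its reads in PMs. It was at 2.25, 2.55 and 0.477 FPKM in PMs. It was at 0.155 FPKM in CD11b+ replicate 2, from 8 reads, and had no read in the other 5 B cell libraries. Il1a was 34.1-fold higher in PMs than in CD11b+ B cells (log2 difference of CD11b+ B cells to PMs -1.29 ± 0.36, adjusted p = 0.0287, limma), and at least 116-fold higher than in CD11b- B cells (-1.36 ± 0.35, adjusted p = 0.0185). The bound ran from 75.7 to 158 with a single library left out, and without CD11b+ replicate 2 no read of Il1a was left in CD11b+ B cells. The call against CD11b+ B cells was lost without any of PM replicate 1, PM replicate 2 or the 3 CD11b+ libraries (adjusted p 0.0595 to 0.106), and that against CD11b- B cells without any of the 3 CD11b- libraries (adjusted p 0.0662 to 0.0712). Both were lost with no filter on low genes (0.115 and 0.0622). Il1a (chr2:129299610-129309972, - strand) shares exon bases with Gm14023 on the other strand, which had 2.12 FPKM in PM replicate 1 and at most 0.522 FPKM elsewhere, and the sources used here do not say whether counting used strand. Il1a was above Il1b in PM replicates 1 and 2, below it in PM replicate 3, and below it in each CD11b+ library.

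Il1rn, the natural antagonist of both ligands, was detected in CD11b+ B cells as well as in PMs. It was at 0.166, 0.138 and 0.328 FPKM in CD11b+ B cells and at 0.622, 0.928 and 0.582 FPKM in PMs. CD11b- B cells held 1 read of Il1rn over the 3 libraries, against 111 reads in CD11b+ B cells. The ranges of the 3 groups did not overlap, and the order was PMs, CD11b+ B cells, CD11b- B cells. Between the B cell groups the log2 difference was 0.27 ± 0.11 (adjusted p = 0.644, limma), and the ratio of the read shares of the 2 groups was 123 with a 95% exact interval of 21.6 to 4890 from counting alone. Against PMs the CD11b+ level was 29.7% (log2 difference -0.50 ± 0.20, adjusted p = 0.0984, limma), a difference that passed under quantile normalization (0.0244), in a fit of all 9 libraries (0.0208) and with DESeq2 (0.00291). CD11b- B cells were below PMs past the threshold (-0.77 ± 0.16, adjusted p = 0.00752). Set against Il1b in the same library, Il1rn was 0.404, 0.230 and 0.735 times Il1b in CD11b+ B cells, and 21.4, 1.85 and 0.431 times Il1b in PMs. These ratios overlapped between the groups (exact permutation p = 0.2). Their size depends on exon lengths of 5535 bases for Il1rn and 1907 for Il1b, and the 21.4 of PM replicate 1 rests on 1 read of Il1b. In reads, the CD11b+ libraries had 27, 20 and 64 of Il1rn against 23, 30 and 30 of Il1b. Il1rn lies on chr2:24336853-24351494 (GRCm38, + strand), far from Il1a and Il1b on the same chromosome.

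Il1r2, the decoy receptor that binds IL-1 without signalling, differed widely between the CD11b+ libraries. It was at 1.84, 3.30 and 0.0595 FPKM in CD11b+ replicates 1, 2 and 3. It was at 0, 0.691 and 0.0981 FPKM in CD11b- B cells and at 0.0582, 0 and 0 FPKM in PMs. CD11b+ replicates 1 and 2 were above every other library, and CD11b+ replicate 3 fell among the CD11b- libraries. The CD11b+ mean was 6.59-fold the CD11b- mean, and leaving out CD11b- replicate 2 made this 35.3-fold, while leaving out CD11b+ replicate 2 made it 3.61-fold (log2 difference 0.93 ± 0.49, adjusted p = 0.686, limma). Against PMs it was 1.2 ± 0.47 (adjusted p = 0.0922), and it passed the threshold without CD11b+ replicate 3 (adjusted p = 0.00637) and with DESeq2 (adjusted p = 0.00226). The highest CD11b+ value of Il1r2 was 55.6 times the lowest. Over the same 3 libraries the summed neutrophil markers also had their highest value in replicate 2 and their lowest in replicate 3, at a ratio of 7.32. Their part in the level of Il1r2 was not tested.

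Il18 was high in all 3 groups and had its mean lowest in CD11b+ B cells. It was at 12.4, 14.7 and 10.8 FPKM in CD11b+ B cells, at 15.9, 24.8 and 14.3 FPKM in CD11b- B cells and at 25.3, 29.5 and 24.4 FPKM in PMs. Ranges overlapped between the B cell groups, and between CD11b- B cells and PMs through CD11b- replicate 2. PMs were 2.09-fold above CD11b+ B cells (log2 difference of CD11b+ B cells to PMs -1.01 ± 0.20, adjusted p = 0.0062, limma). CD11b- B cells differed from PMs by -0.54 ± 0.23, which did not pass the threshold (adjusted p = 0.109), but did so without CD11b- replicate 2 (0.0368), under median-ratio scaling and quantile normalization (0.0161 and 0.0204) and with edgeR and DESeq2 (0.0403 and 0.00728). Between the B cell groups the difference was -0.47, with a 95% interval from -0.99 to 0.04 (adjusted p = 0.676).

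**Figure D2:**
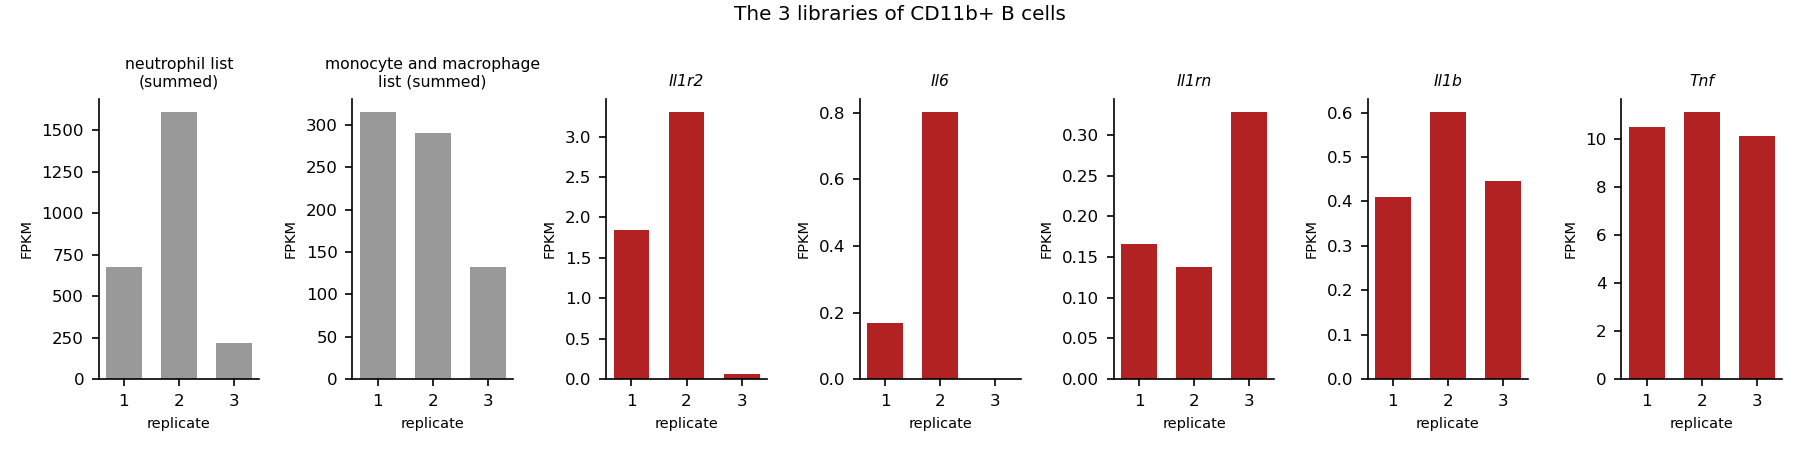
FPKM (vertical axes, linear from 0, a scale for each panel) in the 3 CD11b+ libraries, for the summed neutrophil markers and monocyte and macrophage markers (grey) and for 5 of the cytokine genes (red). Il1r2, Il6 and Tnf are highest in replicate 2 and lowest in replicate 3, as the neutrophil sum is, and Il1b is also highest in replicate 2. The highest library is 55.6 times the lowest for Il1r2, 1.46 times for Il1b and 1.1 times for Tnf.

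Tnf was the member with more transcript in B cells than in PMs at a level past the threshold. It was at 10.5, 11.1 and 10.1 FPKM in CD11b+ B cells, at 8.59, 8.69 and 3.65 FPKM in CD11b- B cells and at 0.102, 2.19 and 1.84 FPKM in PMs. The 3 groups did not overlap, with CD11b+ B cells on top. CD11b+ B cells were 7.65-fold above PMs (log2 difference 2.42 ± 0.42, adjusted p = 0.0036, limma), and CD11b- B cells 5.06-fold above them (1.81 ± 0.49, adjusted p = 0.0237). The CD11b+ call was lost with edgeR (adjusted p = 0.0752). The CD11b- call was lost without CD11b- replicate 1 or 2 (adjusted p = 0.1 and 0.0997), with edgeR and DESeq2 (0.2 and 0.126), under median-ratio scaling and quantile normalization (0.0863 and 0.096) and with no filter on low genes (0.0634). Between the B cell groups the CD11b+ mean was 1.51-fold the CD11b- mean (log2 difference 0.61 ± 0.29, adjusted p = 0.676), and CD11b- replicate 3 stood well below the other CD11b- libraries. Tnf lies on chr17:35199381-35202007 between Ltb and Lta, the genes of the lymphotoxin chains. Both neighbours were far higher in B cells than in PMs. Ltb was at 614 FPKM in CD11b+ B cells, 586 FPKM in CD11b- B cells and 6.30 FPKM in PMs, and Lta at 34.3, 31.2 and 0.119 FPKM.

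Il6 was detected in 2 of 3 CD11b+ libraries, in no CD11b- library and in all PMs. It was at 0.168, 0.802 and 0 FPKM in CD11b+ replicates 1, 2 and 3, from 12, 51 and 0 reads, and at 1.28, 2.10 and 1.24 FPKM in PMs. CD11b+ replicate 2 carried most of the reads of its group. PMs were 4.77-fold above CD11b+ B cells (log2 difference -0.97 ± 0.32), just outside the threshold (adjusted p = 0.0501, limma), and inside it without CD11b+ replicate 2 (adjusted p = 0.0406), where the fold was 18.3. It was also inside under median-ratio scaling (0.0322), quantile normalization (0.0291), a fit of all 9 libraries (0.0108) and limma without a trend (0.0348). PMs were at least 125-fold above CD11b- B cells (-1.33 ± 0.22, adjusted p = 0.00264), or at least 81.7-fold with CD11b- replicate 2 left out. The CD11b+ mean was at least 26.3-fold that of CD11b- B cells, and at least 6.83-fold without CD11b+ replicate 2, but the ranges overlapped at 0 and the difference of 0.36 ± 0.21 did not pass the threshold (adjusted p = 0.701). The summed neutrophil markers had the same order over the CD11b+ libraries as Il6, and so did the T and NK cell markers. Among the 8 members tested between the B cell groups, Il1r2, Il18 and Tnf had this order too. Of the 21778 genes tested there, 16.8% had it. Nlrp3, which was not tested there, had 3 reads in each CD11b+ library, so the order of its FPKM followed from depth alone. Il1rn and Casp1 were highest in replicate 3 and lowest in replicate 2, and Pycard was highest in replicate 3. The plasma cell, basophil and mast cell, dendritic cell, and platelet and megakaryocyte markers were also highest in replicate 3 and lowest in replicate 2. The share of all genes with this order was not counted. The part of these markers in the levels was not tested.

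Nlrp3, which senses disturbance of the cell and starts the inflammasome, was almost limited to PMs. It was at 2.13, 1.97 and 1.27 FPKM in PMs. It was at 0.0252, 0.0283 and 0.0210 FPKM in CD11b+ B cells, from 9 reads in all, and at 0.00739, 0 and 0.00769 FPKM in CD11b- B cells, from 2 reads in all. PMs were 72.3-fold above CD11b+ B cells (log2 difference -1.43 ± 0.24, adjusted p = 0.00337, limma). Against CD11b- B cells the difference was -1.46 ± 0.22 (adjusted p = 0.00193), and the ratio of the read shares of the 2 groups was 368 with a 95% exact interval of 101 to 3040. The ratio between the B cell groups was 4.97, with an interval of 1.03 to 47.3 from counting alone. At this depth Nlrp3 was too low for the test between them.

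Pycard and Casp1, the adaptor and the protease that act after the sensor, were by contrast well detected in B cells. Pycard was at 24.7, 24.7 and 26 FPKM in CD11b+ B cells, at 21.6, 17.1 and 22.4 FPKM in CD11b- B cells and at 179, 204 and 140 FPKM in PMs. Casp1 was at 24.1, 22.7 and 25.8 FPKM in CD11b+ B cells, at 22.2, 19.0 and 17.3 FPKM in CD11b- B cells and at 35.4, 36.0 and 37.3 FPKM in PMs. For both genes the 3 groups did not overlap, and PMs were highest. Pycard was 6.93-fold higher in PMs than in CD11b+ B cells (log2 difference -2.73 ± 0.19, adjusted p = 3.25e-05, limma) and 8.56-fold higher than in CD11b- B cells (-3.03 ± 0.20, adjusted p = 2.42e-05). Casp1 was 1.86-fold higher in PMs than in CD11b- B cells (-0.87 ± 0.16, adjusted p = 0.00443) and 1.5-fold higher than in CD11b+ B cells (-0.57 ± 0.16, adjusted p = 0.033). The last call was lost with a replicate block (adjusted p = 0.106) and without PM replicate 2, PM replicate 3, CD11b+ replicate 1 or CD11b+ replicate 2 (adjusted p 0.0692 to 0.114).

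The FPKM of Pycard for each unit of Casp1 therefore separated PMs from B cells. FPKM divides reads by exon length, here 3800 bases for Pycard, 3136 for Casp1 and 1031 for Il18. The size of a ratio between genes depends on these lengths, while its fold between groups does not. Pycard was 5.05, 5.67 and 3.74 times Casp1 in PMs, 1.03, 1.09 and 1.01 times in CD11b+ B cells and 0.971, 0.897 and 1.29 times in CD11b- B cells. The means were 4.82 ± 0.983 (SD, n = 3) in PMs, 1.04 ± 0.0419 in CD11b+ B cells and 1.05 ± 0.211 in CD11b- B cells. The exact permutation test gave p = 0.1, its smallest value, for either B cell group against PMs, and p = 1 between the B cell groups. Casp1 was 1.94, 1.55 and 2.39 times Il18 in CD11b+ B cells and 0.767 to 1.40 times in CD11b- B cells, with no overlap (exact permutation p = 0.1). Exon bases of Pycard (chr7:127989708-127993867, - strand) are shared with Gm45205 on the other strand, which had at most 0.286 FPKM in any library.

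Between CD11b+ and CD11b- B cells no member passed the threshold. Il1a and Nlrp3 were below the minimum mean of 0.05 FPKM and were not tested, and Il1b, Il6 and Il1rn passed that minimum through the CD11b+ libraries, so counts over the 8 members tested are a description. Of these, 0 were called by limma in either direction, where 0.0689% of all genes were called higher. Il1b and Il1rn were the 2 members with an unadjusted p under 0.05 in limma (0.00198 and 0.0425), as 7.68% of all genes had. DESeq2 on whole reads called these 2 genes higher (adjusted p = 0.000995 and 0.00173), against 1.45% of all genes called higher by DESeq2, and edgeR called 0 of 7 tested. The CD11b+ libraries were above all CD11b- libraries for Il1b, Il1rn, Tnf, Casp1 and Pycard, 5 of the 8 members tested, against 8.63% of all genes. They were below all CD11b- libraries for 0 of 8 members, against 6.32% of all genes. The median log2 difference over the 8 members was 0.33, and 0.03 over all genes.

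Against PMs the members past the threshold were lower in B cells, except Tnf, which was higher. In CD11b+ B cells 5 of 10 members were lower past the threshold (Pycard, Nlrp3, Il1a, Il18 and Casp1), where 8.78% of all genes were. Tnf alone was higher, 1 of 10 members, where 21.5% of all genes were. In CD11b- B cells 6 of 10 members were lower (Pycard, Nlrp3, Il1a, Il6, Casp1 and Il1rn), where 11.0% of all genes were, and 1 of 10, again Tnf, was higher, where 25.8% were. These 2 comparisons share the PM libraries. Nlrp3 in both, and Il1a, Il6 and Il1rn in that of CD11b- B cells, passed the minimum of 0.05 FPKM through the PMs alone, and Il1a in CD11b+ B cells was just above it at 0.0516 FPKM, so these counts too are a description. The median log2 difference over the members was -0.77 for CD11b+ and -0.82 for CD11b- B cells, while the medians over all genes were 0.25 and 0.24. Median-ratio scaling moved the medians of all genes to 0.13 and 0.07. It also turned the split of all genes from 4760 higher and 1940 lower to 2922 and 2566 with CD11b+ B cells, and from 5404 and 2306 to 3411 and 3088 for CD11b- B cells. The direction of each called member was the same under median-ratio scaling and quantile normalization.

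**Figure D3:**
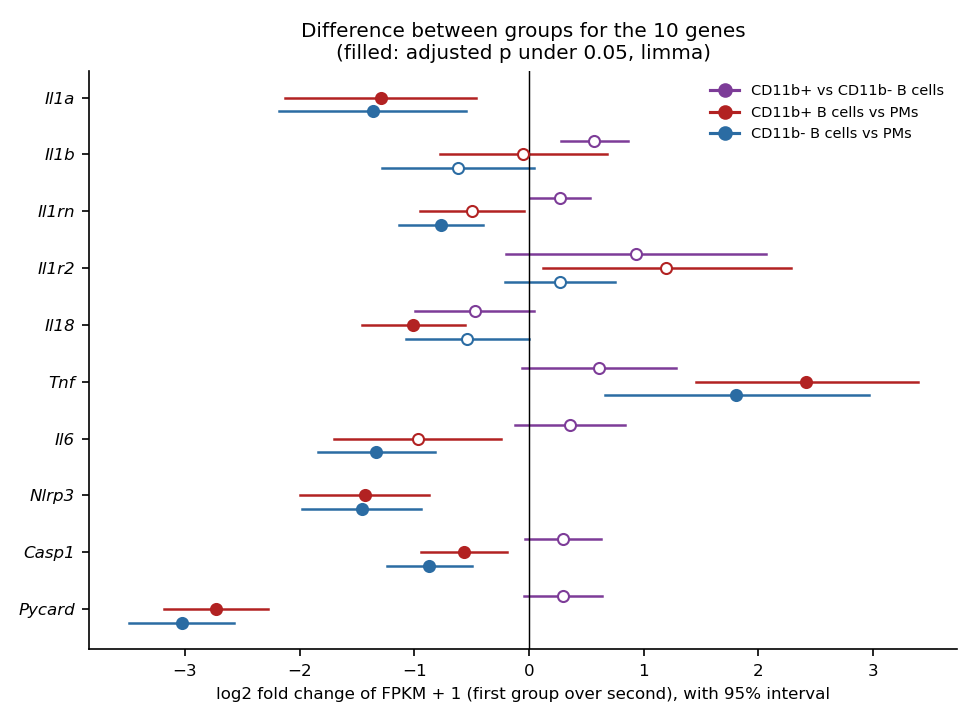
Log2 fold change of FPKM + 1 (horizontal axis, first group over second) with its 95% interval from limma for each gene in the 3 comparisons, filled where the adjusted p is under 0.05. Il1a and Nlrp3 have no point between the B cell groups because their mean was under 0.05 FPKM. Tnf is the gene with filled points to the right of 0, and Pycard has the lowest values, at -2.73 and -3.03.

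The members stood at unlike shares of their PM level in B cells. In CD11b+ B cells Nlrp3 was at 1.38% of the PM mean, Il1a at 2.93%, Pycard at 14.4%, Il6 at 21.0%, Il1rn at 29.7%, Il18 at 47.9%, Casp1 at 66.8% and Il1b at 77.4%. Without PM replicate 3 Il1b was at 183% of the PM mean, and Il6 was at 5.46% without CD11b+ replicate 2. The median over the 14 monocyte and macrophage markers was 1.55%, and that over the 7 markers of resident peritoneal macrophages 0.328%. The markers spread widely, and Ly6c2 was at 33.7 FPKM in CD11b+ B cells against 0.127 FPKM in PMs. In CD11b- B cells Casp1 was at 53.8%, Il18 at 69.5% and Pycard at 11.7%, while the median over the monocyte and macrophage markers was 0.174%. Over the CD11b+ libraries Il1b had its highest value 1.46 times its lowest, where the summed monocyte and macrophage markers had a ratio of 2.39 and the neutrophil markers one of 7.32. The part of either cell type in the members' levels was not tested.

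**Figure D4:**
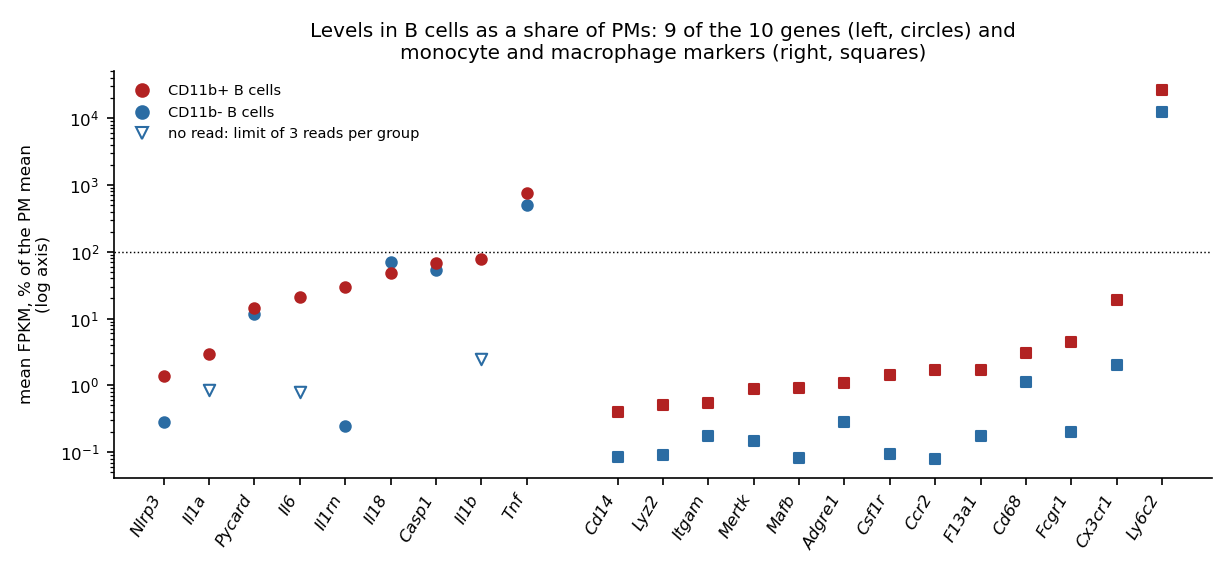
Mean FPKM in CD11b+ (red) and CD11b- (blue) B cells as a percentage of the PM mean (vertical axis, log scale; the dotted line is 100%), for 9 of the 10 genes on the left and 13 of the 14 monocyte and macrophage markers on the right, each with over 3 reads in PMs. Open triangles are the level that 3 reads over a group would give where no read was found, and Il1r2 and the marker Ms4a7 are left out for their 2 reads and 1 read in PMs. Tnf on the left and Ly6c2 on the right lie above the line.

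The wider IL-1 family was described by 11 ligands and inhibitors and 14 receptors and adaptors. Between the B cell groups 0 of 7 and 0 of 12 genes tested were called. Il1f9, the gene of IL-36γ, had, as Il1b, no read in CD11b- B cells, and unlike Il1b none in PMs either, and was at 0.723, 0.278 and 1.31 FPKM in the CD11b+ libraries. Against PMs, CD11b+ B cells had more of it (log2 difference 0.78 ± 0.23, adjusted p = 0.0378, limma), a call that was lost under 4 other settings (adjusted p 0.0538 to 0.111, median-ratio scaling among them) and without any PM library or CD11b+ replicate 1 (adjusted p 0.0765 to 0.102). Between the B cell groups it did not pass (adjusted p = 0.453, limma). Of the receptors and adaptors, 2 were higher and 3 lower of 14 tested in CD11b+ B cells than in PMs, and 3 were higher and 3 lower of 13 in CD11b- B cells. Over all genes the shares higher and lower were 21.5% and 8.78% for CD11b+ B cells, and 25.8% and 11.0% for CD11b- B cells. Sigirr, an inhibitory receptor of the family, was at 27.9 FPKM in CD11b+ B cells, 31.4 FPKM in CD11b- B cells and 0.214 FPKM in PMs (log2 differences to PMs 4.55 ± 0.27 and 4.74 ± 0.20, adjusted p = 1.15e-05 and 2.73e-06). Irak2, a kinase of the pathway, was at 17.3, 20.2 and 3.09 FPKM in that order. Il1r1, the signalling receptor, was at 0.00697 and 0.0109 FPKM in CD11b+ and CD11b- B cells and at 0.529 FPKM in PMs, lower past the threshold in both (adjusted p = 0.0248 and 0.0191, limma). These calls were lost with a replicate block (0.0693 and 0.0564), that of CD11b+ B cells also without PM replicate 3 or CD11b+ replicate 1 or 2 (0.0566 to 0.0795), and that of CD11b- B cells without CD11b- replicate 1 or 2 (0.0601 and 0.0606).

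The inflammasome and pyroptosis list held 25 genes, and 22 were tested for CD11b+ B cells against PMs. Of these, 11 were lower and 2 higher in CD11b+ B cells. The CD11b- comparison had 11 lower and 2 higher of 23. The shares of all genes were 8.78% lower and 21.5% higher in the first comparison, and 11.0% and 25.8% in the second. Under median-ratio scaling there were 12 lower and 1 higher of 23 for CD11b+ B cells, and 13 lower and 1 higher of 23 for CD11b- B cells. Ninj1, which ruptures the membrane of dying cells, was at 14.3 FPKM in CD11b+ B cells, 14.6 FPKM in CD11b- B cells and 420 FPKM in PMs. Naip5, a sensor of bacterial flagellin, was at 4.02 FPKM in CD11b+ B cells and 54.9 FPKM in PMs, and Naip1 at 0.152 and 18.0 FPKM. The Naip genes are close copies of each other, so that reads may have been split between them. Panx1, a membrane channel, was higher in both B cell groups, at 12.6 and 14.5 FPKM against 1.97 FPKM in PMs. Nek7, a partner of NLRP3, was at 16.2 and 16.3 FPKM against 7.63 FPKM, a call that was lost for both groups under median-ratio scaling (adjusted p = 0.0984 and 0.0893), quantile normalization (0.091 and 0.0983) and edgeR (0.0679 and 0.0552), and for CD11b+ B cells with DESeq2 (0.0568) and without CD11b+ replicate 1 (0.0536). Gsdmd, the pore-forming substrate of caspase-1, was picked after its values were seen. It was at 60.4, 66.4 and 71.5 FPKM in CD11b+ B cells, CD11b- B cells and PMs, and its difference of CD11b+ B cells to PMs of -0.23 did not pass (adjusted p = 0.385).

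In the TNF list most genes were higher in B cells. Of 13 genes, 9 were higher and 2 lower in CD11b+ B cells than in PMs, where 21.5% and 8.78% of all genes were. In CD11b- B cells 10 were higher and 2 lower, where 25.8% and 11.0% of all genes were. With median-ratio scaling 7 and 6 were higher, and 2 were lower in either comparison. Among genes of this list higher in B cells, Ltb and Lta had the largest differences (log2 6.43 ± 0.26 and 4.98 ± 0.22 for CD11b+ B cells, adjusted p = 1.96e-06 and 3.22e-06, limma). Tnfaip3, which restrains nuclear factor kB, was at 12.2, 17.9 and 1.6 FPKM in CD11b+ B cells, CD11b- B cells and PMs. The receptors went the opposite way. Tnfrsf1a was at 1.13, 0.150 and 109 FPKM, and Tnfrsf1b at 7.45, 7.43 and 37.1 FPKM, both lower in the B cells past the threshold. Tnfrsf1a was at 1.79, 1.47 and 0.120 FPKM in CD11b+ replicates 1, 2 and 3, so that replicate 3 was like the CD11b- libraries.

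Of the IL-6 list, 1 gene was higher and 4 lower of 9 tested in CD11b+ B cells against PMs, and 1 higher and 5 lower of 9 in CD11b- B cells, beside 21.5% higher and 8.78% lower, and 25.8% and 11.0%, of all genes. Il6ra, the receptor chain specific to IL-6, was at 1.47, 0.815 and 22.4 FPKM in CD11b+ B cells, CD11b- B cells and PMs. Il6st, the signalling chain gp130, was at 0.759, 1.12 and 5.39 FPKM. Socs3, an inhibitor induced by the pathway, was at 4.65, 3.79 and 34.8 FPKM, while the kinase gene Jak1 was higher in B cells at 62.2 and 77.5 FPKM against 31.0 FPKM. The CD11b+ call of Jak1 was lost under median-ratio scaling (adjusted p = 0.0678) and with edgeR and DESeq2 (0.0809 and 0.0535). Among the 16 other cytokines, Il12a was at 41.0, 56.7 and 0.0752 FPKM, Il27 at 0.0873, 0.00936 and 3.57 FPKM and Il15 at 1.73, 3.06 and 8.66 FPKM. The CD11b- call of Il15 was lost without CD11b- replicate 1 or 2 (adjusted p = 0.0618 and 0.0602). Over all 6 lists 0 of 74 genes tested were called by limma between the B cell groups, 12 had an unadjusted p under 0.05 (7.68% of all genes did), edgeR called 0 and DESeq2 called 4 of 72 higher (Il1b, Il1rn, Il1f9 and Il18rap, beside 1.45% of all genes).

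**Figure D5:**
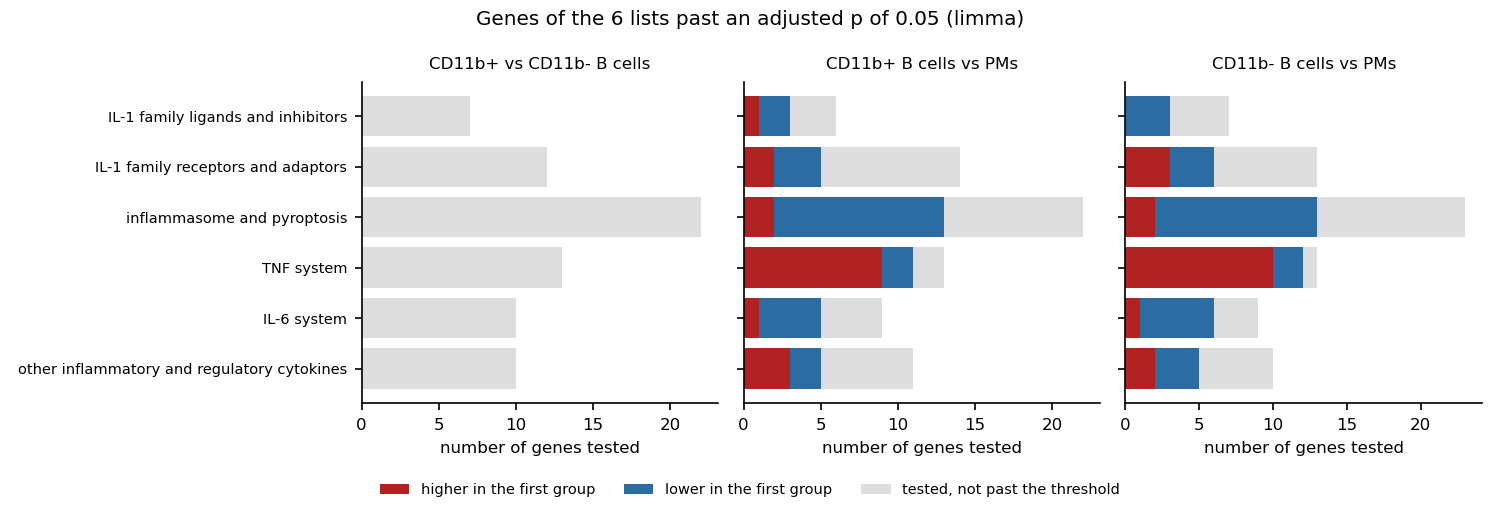
Number of genes tested (horizontal axes) in each of the 6 lists for the 3 comparisons, split into genes higher in the first group (red), lower in it (blue) and tested but not past an adjusted p of 0.05 (grey). The TNF list is mostly red and the inflammasome list mostly blue and grey against PMs, and all bars are grey between the B cell groups.

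Over the 9 libraries, 8 members had a mean of at least 1 FPKM in a group and could be compared with 14218 genes by the root mean square difference of their centred log2(FPKM + 1) values. Nlrp3 was most like Tln2, Smo and Ube2ql1, at differences of 0.07, 0.09 and 0.09, where the root mean square of Nlrp3 itself was 0.69. Pycard was most like Ppt2, Gprc5b and Klk8, each at 0.16, Casp1 like B3glct, Eloc and Etfb, each at 0.11, and Il1a like Tgm2 at 0.13, Pter at 0.14 and Bmx at 0.16. Il6 was most like Stard13 at 0.14, Fam131a at 0.20 and Mrps15 at 0.21. Tnf had Timm29, Uchl3 and Syce2 nearest, at 0.24, 0.26 and 0.27, and Il18 had Mrpl23-ps1, Ell and Ehd1, at 0.21, 0.22 and 0.22. Il1r2 was nearest to Timd2, an unnamed miRNA gene and H2ac11, at 0.19, 0.20 and 0.26. All of these values rest on the same 9 libraries, and for genes high in PMs alone they mostly reflect the step between PMs and B cells.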

How the data were processed

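Full-length cDNA was made from RNA of sorted cells with SMART-seq HT for 9 libraries, and both ends were sequenced. Reads were trimmed by the authors (Trim Galore 0.4.4, Trimmomatic 0.36, cutadapt 1.16), mapped with STAR 2.7.2b to GRCm38 and counted with featureCounts 1.6.1, and the processing notes also name GRCm39. The main table holds FPKM as deposited by the authors. A second deposited table holds a signal for 11063 genes, reads divided by DESeq2 1.20.0 size factors, for genes the authors selected by a p-value. It served to check the reads, and its cluster numbers were not used. Whole reads were recovered from the FPKM steps (100% of values within 0.05 of a whole number).

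Groups followed the labels. The members and lists were chosen with earlier results of these data known. Each comparison was fitted on its 6 libraries with limma 3.58.1 (trend, two-sided) on log2(FPKM + 1), which understates changes of low genes, over genes with a mean of at least 0.05 FPKM. Benjamini-Hochberg adjustment ran over all genes tested, with a threshold of 0.05. The fit was tested on simulated data. Exact permutation tests of mean FPKM were two-sided. Alternatives were edgeR 4.0.16 and DESeq2 1.42.0 on whole reads, other pseudocounts, filters, scalings and fits, a replicate block and each library left out. Intervals and the floor of 3 reads per group cover counting error only. Named genes were the members and, per list, comparison and direction, the 3 genes with the largest difference past the threshold, of which a part is printed. Of the list genes, 4 were matched by older symbols. Positions and shared exon bases are those of GENCODE M21 (GRCm38) by Ensembl identifier. Starts in the expression table matched that annotation for only 1462 of 52046 genes. The build and annotation behind the counts were thus not settled, and the exons counted may differ from those given here.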

Additional observations from a re-analysis of the deposited data

How the results depend on the processing

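No call reversed, while the Il1b difference of CD11b+ B cells to PMs, never past the threshold, changed sign from -0.05 to 0.26 with a pseudocount of 0.1 and to 0.25 without PM replicate 3. Of 434 values of members under the alternatives, 392 kept their side of the threshold, 23 lost a call and 19 gained one. DESeq2 on whole reads called 2 members and 4 list genes between the B cell groups, where limma called 0 of each. With a minimum mean of 1 FPKM, 3 members were called for CD11b- B cells against PMs instead of 7, since only 4 were tested. Leaving out single libraries gave 4 to 6 members for CD11b+ B cells against PMs, 5 to 8 for CD11b- B cells against PMs and 0 between the B cell groups, and 29 to 44, 34 to 47 and 0 list genes. Deviations of CD11b+ and CD11b- libraries with the same number in the title correlated at 0.203, -0.011 and 0.167. The 2 pairs that also share the number in the description were those at 0.203 and 0.167, and whether these are paired was not settled. A replicate block by the description number called 0 members, and took the calls over all genes from 15 to 0, where the block by title number gave 16. With the replicate block by title number, 5 and 7 members were called against PMs and 0 between the B cell groups, with 36, 42 and 0 list genes. The block took the call of Casp1 in CD11b+ B cells against PMs (adjusted p = 0.106, limma). Over all genes, 15 were called between the B cell groups by limma, 42 by edgeR and 392 by DESeq2 (328 higher and 64 lower). Depth limits Nlrp3 and Il1a in B cells, with at most 9 reads a group.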
